A study of Mus musculus with 46 samples.

Results

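The genes that run and restrain the G1 phase of the cell cycle were followed in mouse models of synovial sarcoma, a soft tissue cancer driven by fusions of SS18 to an SSX gene. The 10 genes were chosen by name. They are 5 inhibitors (Cdkn2a, Cdkn2b, Cdkn1a, Cdkn1b and Cdkn1c), 3 D-type cyclins (Ccnd1, Ccnd2 and Ccnd3) and 2 kinases (Cdk4 and Cdk6), of 56854 genes listed in both count tables. RNA was sequenced from 46 tumors, with 1 library each. In the hSS2 background the human fusion SS18::SSX2, and in the hSS1 background SS18::SSX1, was switched on by injecting Cre protein (TATCre) into the limb at 8 days of age. Floxed alleles of a subunit of the BAF family of chromatin remodelers were recombined by the same Cre. Pbrm1 is a subunit of the PBAF form, whereas Arid1a or Arid1b is built into the canonical BAF form. In hSS2 there were 13 control tumors and 8 tumors for each floxed gene (written Pbrm1-fl, Arid1a-fl and Arid1b-fl), and in hSS1 there were 5 controls and 4 Pbrm1-fl tumors. Every group, controls included, carried the fusion and received Cre. Mice of both sexes were used, of a mixed strain given as CB57Bl/6-svJ and between 2 and 6 months old, with no age for each tumor in the sources used here. Each tumor grew where Cre entered limb cells, so its tissue also held host cells in which floxed alleles may not have been recombined.

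D-type cyclins bind Cdk4 or Cdk6, and the pair phosphorylates the retinoblastoma protein, which releases E2F factors that start the genes of DNA synthesis. The INK4 inhibitors p16 (from Cdkn2a) and p15 (from Cdkn2b) bind the kinases themselves. The CIP/KIP inhibitors p21 (Cdkn1a), p27 (Cdkn1b) and p57 (Cdkn1c) act on whole cyclin-kinase complexes, and p21 is a classic target of p53. A second product of Cdkn2a, ARF, frees p53 from its inhibitor Mdm2. Synovial sarcoma has been known to express cyclin D proteins, and inhibitors of CDK4 and CDK6 are used against other cancers. Mki67, which encodes the Ki-67 antigen of cycling cells, served as the measure of proliferation.

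Total counts ranged from 10613976 to 21294657 reads per library in hSS2 and from 10137668 to 14130024 reads in hSS1. The targeted transcripts had lower means in each floxed group. Levels are given in CPM, which are counts scaled to a common library size, as mean ± SD. Pbrm1 stood at 104 ± 14.9 CPM (n = 8) against 250 ± 35.3 (n = 13) in hSS2 and at 197 ± 66.2 (n = 4) against 332 ± 38.5 (n = 5) in hSS1. Arid1a stood at 249 ± 14.1 CPM in the 8 Arid1a-fl tumors against 482 ± 85.8 in the controls, and Arid1b at 200 ± 87.3 CPM in the 8 Arid1b-fl tumors against 349 ± 114. The difference in Arid1b did not pass (log2 difference -0.80 ± 0.19, edgeR adjusted p = 0.145). Nor did that of Pbrm1 in hSS1 (-0.75 ± 0.24, edgeR adjusted p = 0.193), where the Pbrm1-fl tumors ran from 102 to 252 CPM. A pair of libraries went against their labels. The library labelled hSS2 Arid1b-fl replicate 4 held 347 CPM of Arid1b, above the control median of 323, and without it no member was called in any comparison of Arid1b-fl tumors, as with it. The library labelled hSS2 control replicate 9 held 238 CPM of Arid1a, within the range of the Arid1a-fl tumors (229 to 276 CPM). Without it the calls among the 10 genes against hSS2 controls were the same (Cdk4 in Arid1a-fl 0.78 on the log2 scale, adjusted p = 0.0421). Transcripts of skeletal muscle differed widely between hSS2 tumors. All 12 muscle markers passed the filter there, and their summed level ran from 5.90 to 54504 CPM, with muscle creatine kinase (Ckm) between 0.0567 and 5736 CPM. In hSS1, where 6 of 12 passed, it ran from 7.04 to 564 CPM. The 10 markers of synovial sarcoma were all measured and summed to between 353 and 1445 CPM, with Tle1 at 165 CPM or more in every tumor and the epithelial keratin Krt19 at 0 in some tumors of 5 groups. Since these are pieces of whole tumors, fewer cells of a type and less RNA per cell cannot be told apart. The mouse numbers in the labels also ran with the floxed gene (every Arid1a-fl mouse was under 1000 and every hSS2 Pbrm1-fl mouse 2000 or over), and the hSS2 controls spanned all 3 ranges with 5, 4 and 4 tumors. The paper states that controls were littermates, but the labels give no litter and do not say what the ranges stand for. The main test pooled the controls of all 3 ranges. Differences with controls of the same range (range-matched) are therefore given beside the members of interest and beside called genes of the lists.

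All 10 genes were well counted, from at least 20 reads (Cdkn2b in hSS1 Pbrm1-fl replicate 2) to 206085 reads (Ccnd2 in hSS2 Pbrm1-fl replicate 8), and all 10 passed the filter on low counts in both tables. Per kilobase of exon, the cyclin Ccnd2 had the highest level of the 10 genes in each of the 6 groups, with a mean of 220 CPM per kilobase in hSS2 controls and 341 in hSS1 controls. It exceeded Ccnd1 in 35 of 37 hSS2 tumors (median ratio 2.91) and in 9 of 9 hSS1 tumors (median ratio 5.34), and it exceeded Ccnd3 in every tumor. Ccnd1 came next in hSS2 controls (73.1 CPM per kilobase), above Cdk4 in 12 of 13 tumors. In hSS1 Cdk4 came second by mean, with Cdk4 above Ccnd1 in 4 of 5 controls and 2 of 4 Pbrm1-fl tumors.

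Between the kinases, Cdk4 exceeded Cdk6 per kilobase in every tumor, by a median of 10.4 times in hSS2 and 23.3 times in hSS1. Cdk6 and Cdkn2b were the lowest of the 10 in all 6 groups, at 4.11 and 5.85 CPM per kilobase in hSS2 controls. Among the inhibitors, neighbors in the order were not set apart by their spread. In hSS2 controls Cdkn1c exceeded Cdkn1a in 6 of 13 tumors and Cdkn1a exceeded Cdkn1b in 8 of 13. In hSS1 Cdkn1b exceeded Cdkn1a in 9 of 9 tumors, against 18 of 37 in hSS2. The tables of the 2 backgrounds were normalized separately, so levels set across them are descriptions.

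**Figure D1:**
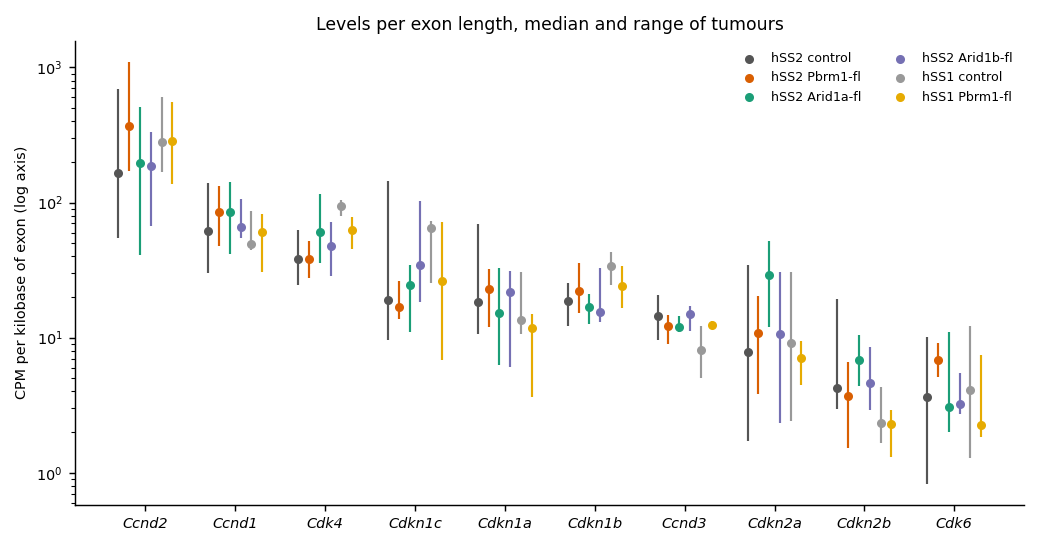
Level of each of the 10 genes in CPM per kilobase of exon (log axis) by group, with the median as a point and the range over tumors as a line. Ccnd2 lies above all others in each group (mean 220 in hSS2 controls) and Cdk6 and Cdkn2b lie lowest (means 4.11 and 5.85 in hSS2 controls).

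The spread between tumors was wider for some members than for others. Over the 37 hSS2 tumors the highest level was 30 times the lowest for Cdkn2a (2.03 to 60.8 CPM) and 26.9 times for Ccnd2 (385 to 10345 CPM). It was 2.91 times for Cdkn1b (55.3 to 161 CPM) and 2.30 times for Ccnd3 (78.6 to 181 CPM). The kinases lay between, at 4.66 times for Cdk4 (80.0 to 373 CPM) and 13.4 times for Cdk6 (11.6 to 156 CPM). The same tumor, Arid1a-fl replicate 1, held the highest Cdkn2a, Ccnd1 (669 CPM), Cdk4, Cdk6 and Mki67 (799 CPM) of the 37. Control replicate 12 held the lowest Ccnd1 (141 CPM), Cdk4, Cdk6 and Mki67 (48.5 CPM).

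**Figure D2:**
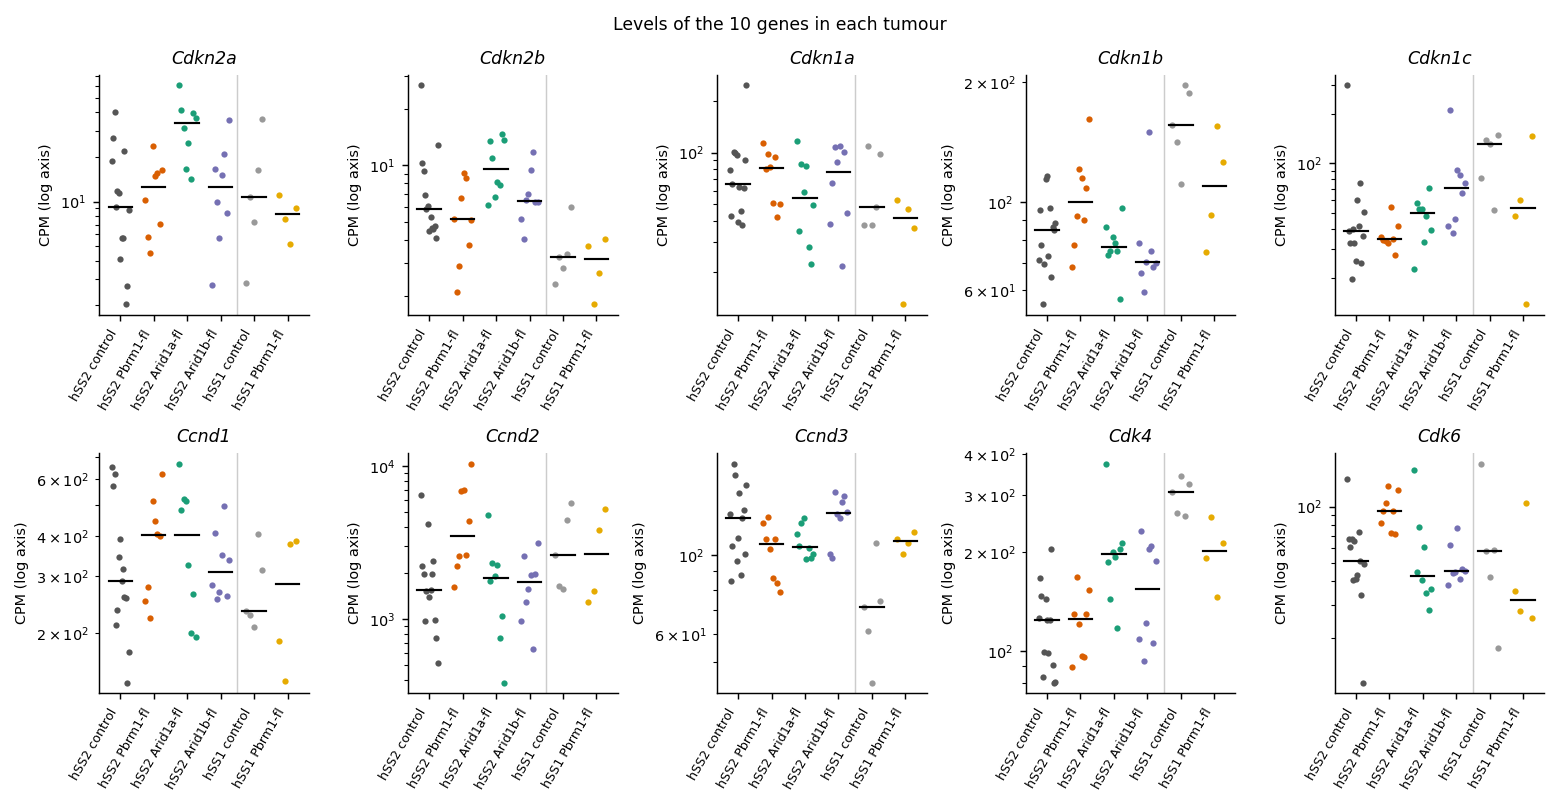
Level of each of the 10 genes in CPM (log axes) in every tumor, with 1 point per tumor and a bar at the group median. Cdk4 and Cdkn2a lie higher in hSS2 Arid1a-fl than in most hSS2 control tumors. Cdk4 runs from 146 to 256 in hSS1 Pbrm1-fl and from 258 to 342 in hSS1 controls, a difference that did not pass.

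In Arid1a-fl tumors Cdk4 rose, and it was the only one of the 10 genes to pass the test against hSS2 controls. Cdk4 (chr10:127063534-127067920, plus strand, GRCm38) encodes a kinase partner of the D-type cyclins. It ranged from 117 to 373 CPM with a median of 197 in the 8 Arid1a-fl tumors, and from 80.0 to 205 CPM with a median of 124 in the 13 controls. The groups overlapped, and 7 of 8 Arid1a-fl tumors lay above the control median. The log2 difference was 0.76 ± 0.19 (SE), or 1.69-fold (edgeR quasi-likelihood test, adjusted p = 0.0355 over 20083 genes). So 1 of 10 members was called, where 3.17% of all genes tested were called in this comparison.

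The Cdk4 call was lost without any of 5 Arid1a-fl tumors (replicates 1, 2, 5, 7 and 8) or without control replicate 12, with log2 differences of 0.58 to 0.85 and adjusted p of 0.0130 to 0.109 over all 21 removals. Against the 5 controls numbered under 1000 it was 0.81 (adjusted p = 0.0539), with Mki67 as a covariate 0.54 (adjusted p = 0.0572), and with the muscle score (the mean log2 CPM of the 12 markers) as a covariate 0.64 (adjusted p = 0.0202). The muscle score averaged 6.18 in controls and 4.32 in Arid1a-fl tumors, and over the hSS2 tumors Cdk4 ran against it with r = -0.69 (rho = -0.65, permutation p = 4e-05 and 0.00011, n = 37). Mki67 itself stood at 420 ± 232 CPM against 307 ± 242, a log2 difference of 0.45 ± 0.43 (adjusted p = 0.539). The part of muscle and of cycling in the Cdk4 difference was not tested beyond these values. Cdk4 shares its 3′ end with Tspan31 on the other strand, and the strand setting of the counting is not given in the sources used here.

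The bases before the Cdk4 start are shown because this was the called member, with the searched motifs in capitals: 4 E-boxes (CACGTG, the site of the Myc family) and a GC box on the reverse strand (GGGCGG, read here as CCGCCC).
Cdk4 promoter, chr10:127063285-127063534, plus strand: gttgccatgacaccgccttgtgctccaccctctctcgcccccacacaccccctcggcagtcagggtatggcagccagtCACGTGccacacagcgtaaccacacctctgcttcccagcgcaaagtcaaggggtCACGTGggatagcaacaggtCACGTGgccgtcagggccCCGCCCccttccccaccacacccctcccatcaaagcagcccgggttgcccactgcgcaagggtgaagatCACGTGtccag
The sequence is from RefSeq on GRCm38.p6, as are the others printed here. The E-boxes lie 172, 118, 98 and 11 bases before the start. CACGTG reads the same on both strands and is found in 6.02% of 32851 windows of 250 bases before mouse gene starts, and 4 or more copies in 0.0213% of them, which is 7 windows of 5 genes. GGGCGG is found on either strand in 32.7%. These are matches of letters and not measured binding.

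Cdkn2a (chr4:89274471-89294653, minus strand) had the largest log2 difference of the 10 members in Arid1a-fl tumors but did not pass. It ranged from 14.1 to 60.8 CPM with a median of 34 in Arid1a-fl tumors and from 2.03 to 40.5 CPM with a median of 9.13 in controls. All 8 Arid1a-fl tumors lay above the control median, though the ranges overlapped. The means were 33.2 ± 15.1 and 13.1 ± 11.3 CPM, a log2 difference of 1.35 ± 0.44 (adjusted p = 0.0719). Against controls numbered under 1000 the difference was 2.01 (adjusted p = 0.0295), and DESeq2 gave 1.37 (adjusted p = 0.0347). Of 7 other settings, Cdkn2a was called in these 2 only. With Mki67 as a covariate the difference was 1.14 (edgeR adjusted p = 0.142), and with only the 2 groups in the fit 1.38 (edgeR adjusted p = 0.104). Over 21 removals of a tumor it was called in 2, with values of 1.16 to 1.64 and edgeR adjusted p of 0.0379 to 0.171.

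The count of Cdkn2a holds the transcripts of both of its products, which start at separate promoters and cannot be told apart in a count per gene. The promoters are printed to show how they differ, with searched motifs in capitals: TTTCCCGC, an E2F site, and GGGCGG.
ARF promoter, chr4:89294620-89294869, minus strand: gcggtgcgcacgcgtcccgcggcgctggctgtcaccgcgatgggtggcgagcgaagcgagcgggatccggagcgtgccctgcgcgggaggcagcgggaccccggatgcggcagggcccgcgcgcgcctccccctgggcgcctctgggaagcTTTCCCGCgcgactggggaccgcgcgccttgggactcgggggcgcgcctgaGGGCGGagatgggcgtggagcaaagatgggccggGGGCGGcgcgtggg
p16 promoter, chr4:89282193-89282442, minus strand: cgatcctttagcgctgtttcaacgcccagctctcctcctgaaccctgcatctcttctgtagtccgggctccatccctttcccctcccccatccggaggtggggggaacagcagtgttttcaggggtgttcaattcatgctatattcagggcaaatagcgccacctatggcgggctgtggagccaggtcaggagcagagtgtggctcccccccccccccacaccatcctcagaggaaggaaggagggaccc
The ARF window had 78.4% GC, an E2F site 99 bases before the start and GC boxes 48 and 14 bases before it. That start is the one in RefSeq. The gene span given above reaches 89294653, so the last bases of this window lie inside that span. The p16 window had 60% GC and none of the letters searched (the E2F sites TTTCCCGC and TTTGGCGC, the E-box, the GC box, the CCAAT box and the TATA box TATAAA, on both strands). Over all windows the median GC content was 52.4%, and TTTCCCGC was found in 0.895%, TTTGGCGC in 0.417%, CCAAT in 33.8% and TATAAA in 12.4%. Promoter windows were matched for 7 of the 10 genes, and none was matched for Cdkn1c, Ccnd1 and Ccnd2.

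The other 8 members differed by -0.46 to 0.32 on the log2 scale in Arid1a-fl tumors, with adjusted p of 0.313 or more. Cdkn2b lay above the control median in all 8 tumors (0.32 ± 0.30) and Ccnd3 under it in all 8 (-0.21 ± 0.12), and neither passed. Of the G1/S pathway list (27 further genes of cyclin E, E2F and retinoblastoma function and their regulators), 4 rose and 0 fell. In this comparison 3.17% of all genes were called. Range-matched, 3 of the 4 were also called (all but Myc). Cdk2, the kinase partner of cyclin E, rose from 46.3 ± 8.77 to 69.5 ± 18.2 CPM (log2 difference 0.59, adjusted p = 0.0211). Tfdp1, the dimer partner of E2F factors, rose from 83.3 ± 12.7 to 126 ± 43.9 CPM (0.60, adjusted p = 0.0212). Myc, a transcription factor that binds E-boxes, stood at 36.4 ± 50 against 12.5 ± 5.33 CPM (1.54, adjusted p = 0.0379; range-matched 1.44, adjusted p = 0.108), with a spread among Arid1a-fl tumors wider than their mean. Ccne1 (cyclin E1), which was named after its values were seen, rose from 4.06 ± 2.23 to 9.59 ± 7.78 CPM (1.24, adjusted p = 0.0484).

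Of 32 proliferation genes, 1 passed in Arid1a-fl tumors, where 3.17% of all genes were called. It was Mcm4 of the replicative helicase (log2 difference 0.91, adjusted p = 0.0272; range-matched 1.04, adjusted p = 0.0317). The median difference was 0.74 over that list and 0.35 over the G1/S list, beside -0.04 over all genes, and all 32 proliferation genes had positive values. None of 23 tested p53 target genes was called (smallest adjusted p 0.133), and their median was -0.01. The positive sign of the proliferation list was not particular to Arid1a-fl tumors. Against hSS2 controls, 31 of 32 were positive in Pbrm1-fl (median 0.30) and 27 of 32 in Arid1b-fl tumors (median 0.09). Across the mouse number ranges of the hSS2 controls alone, all 32 were positive (median 0.67) and none was called. In hSS1 Pbrm1-fl tumors 1 of 32 was positive. The cause of the shared sign was not tested.

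In hSS2 Pbrm1-fl tumors 0 of the 10 members passed against controls by edgeR, where 7.35% of genes were called. Ccnd2 and Cdk6 lay above the control median in 8 of 8 tumors. At an unadjusted p under 0.05 there were 4 members (Ccnd2, Cdk6, Cdkn1b and Ccnd3), beside 22.4% of all genes, and DESeq2 also called 0. Ccnd2 (chr6:127125162-127152193, minus strand), a D-type cyclin, ranged from 1613 to 10345 CPM with a median of 3485 in Pbrm1-fl tumors. In controls it ranged from 513 to 6463 CPM with a median of 1556. The means of 4706 ± 3087 and 2068 ± 1619 CPM gave a log2 difference of 1.19 ± 0.41 (edgeR, adjusted p = 0.0696).

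Ccnd2 would have been called without control replicate 1 (1.47, adjusted p = 0.0147), control replicate 6 (1.31, adjusted p = 0.0492) or Pbrm1-fl replicate 1 (1.31, adjusted p = 0.0442). Control replicate 1 held 6463 CPM of Ccnd2, the highest of the controls, and is numbered in the range of 2000 and over. Against the 4 controls numbered 2000 and over, the range of every Pbrm1-fl mouse, the difference was 0.69 (adjusted p = 0.676), and with the muscle score as a covariate 0.86 (adjusted p = 0.161). The muscle score averaged 4.0 in Pbrm1-fl tumors. Ccnd2 overlaps antisense transcripts (9330179D12Rik and Gm43126), whose reads could enter its count if strand was not used.

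Cdk6 (chr5:3341485-3531008, plus strand), the other kinase partner of D-type cyclins, ranged from 71.1 to 128 CPM with a median of 94.8 in Pbrm1-fl tumors and from 11.6 to 141 CPM with a median of 51.2 in controls. The means were 96.4 ± 21.5 and 57.4 ± 30.3 CPM, a log2 difference of 0.75 ± 0.28 (adjusted p = 0.0945). Without control replicate 1, which held the 141 CPM, it was 0.93 (adjusted p = 0.0191). Within the range of 2000 and over it was 0.20 (adjusted p = 0.907), since the 4 controls of that range, replicate 1 among them, averaged 84.2 ± 38 CPM. Since every Pbrm1-fl mouse lies in that range, the floxed allele and the range cannot be told apart against the other controls.

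Cdkn1b, encoding p27, stood at 104 ± 29.2 CPM in Pbrm1-fl tumors against 84.1 ± 18.1 (log2 difference 0.31 ± 0.15, adjusted p = 0.220). Ccnd3 stood at 103 ± 18.6 against 126 ± 31.2 CPM (-0.29 ± 0.12, adjusted p = 0.160). The other 6 members differed by -0.69 to 0.19 (adjusted p of 0.266 or more), Cdk4 among them at 123 ± 28.4 against 121 ± 37.7 CPM. Cdkn2b, encoding p15, stood at 5.42 ± 2.55 against 8.13 ± 6.17 CPM, and its difference widened to -1.30 (adjusted p = 0.0432) against controls of the same range. Of the 23 p53 targets 1 rose and 1 fell, where 7.35% of all genes were called, and range-matched both calls were lost. Bbc3, a pro-apoptotic BH3 gene, was at 23.9 ± 4.31 against 16.9 ± 3.89 CPM (0.50, adjusted p = 0.0302; range-matched 0.26, adjusted p = 0.615), and Btg2, an antiproliferative gene, at 65.4 ± 22.4 against 109 ± 42.7 CPM (-0.74, adjusted p = 0.0446; range-matched -0.88, adjusted p = 0.113). None of the 27 G1/S genes (smallest adjusted p 0.0532) and none of the 32 proliferation genes (0.273) was called by edgeR.

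**Figure D3:**
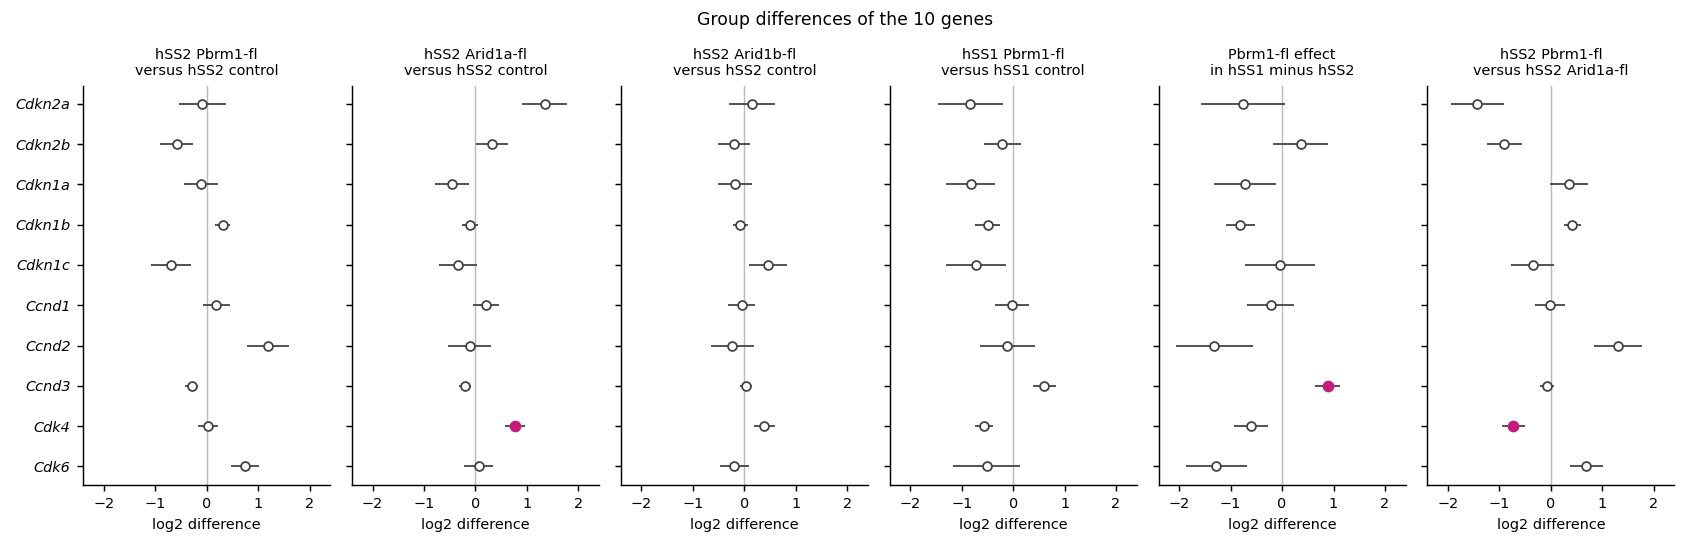
Log2 difference (point) and standard error (line) of each of the 10 genes in 6 of the comparisons, with a filled point where the adjusted p was under 0.05. The filled points are Cdk4 in hSS2 Arid1a-fl versus control (0.76) and in hSS2 Pbrm1-fl versus Arid1a-fl (-0.73), and Ccnd3 in the difference of the Pbrm1-fl effects (0.89).

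Set against each other, Pbrm1-fl and Arid1a-fl tumors differed in Cdk4, the only member of 10 called by edgeR, beside 12.3% of genes. DESeq2 called Cdk4, Cdkn2a (adjusted p = 0.0268) and Ccnd2 (adjusted p = 0.0443), with its share of all genes not given here. Cdk4 was lower in Pbrm1-fl, at 123 ± 28.4 CPM (89.5 to 168, median 125) against 204 ± 75.8 CPM (117 to 373, median 197), and all 8 Pbrm1-fl tumors lay under the Arid1a-fl median. The log2 difference was -0.73 ± 0.22 (adjusted p = 0.0257). The call was lost without Pbrm1-fl replicate 5 or 6 or Arid1a-fl replicate 1, with a range over removals of -0.83 to -0.55. When each group was first set against controls of its own range the value was -0.90 (adjusted p = 0.168). This comparison shares no tumor with the controls, but its Arid1a-fl tumors are those of the comparison above.

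At an unadjusted p under 0.05 there were 6 members, beside 26.8% of genes. Ccnd2 was at 4706 ± 3087 CPM in Pbrm1-fl against 1910 ± 1370 in Arid1a-fl tumors (log2 difference 1.30 ± 0.47, adjusted p = 0.0647; 0.16 with adjusted p = 0.927 range-matched), and Cdkn2a at 12.3 ± 6.60 against 33.2 ± 15.1 CPM (-1.43 ± 0.51, adjusted p = 0.0587). Cdkn2b was at 5.42 ± 2.55 against 10.2 ± 3.39 CPM, with all 8 Pbrm1-fl tumors under the Arid1a-fl median (-0.91 ± 0.34, adjusted p = 0.0785). So both INK4 genes, which lie side by side on chromosome 4, had lower means in Pbrm1-fl tumors without passing in the edgeR fit of all hSS2 groups. Cdkn2a passed with the muscle score as a covariate (adjusted p = 0.0293) and with only these 2 groups in the fit (adjusted p = 0.0189). Range-matched, both genes passed (-2.96 with adjusted p = 0.0388 for Cdkn2a, and -2.02 with adjusted p = 0.0316 for Cdkn2b). Cdkn1b (0.42, adjusted p = 0.104) and Cdk6 (0.69, adjusted p = 0.152) were higher in value in Pbrm1-fl tumors, and the range-matched value of Cdk6 was -0.25 (adjusted p = 0.809).

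Of the G1/S list, 7 of 27 were lower in Pbrm1-fl than in Arid1a-fl tumors and 0 higher, where 12.3% of all genes were called. Range-matched, none of the 7 was called (adjusted p of 0.0731 to 0.945). Of them 1, Cdk7, turned in sign (-0.33 to 0.03), and the others stayed negative, with range-matched values of -1.47 to -0.24. The 3 with the smallest adjusted p were Cdk2 (46.2 ± 11.5 against 69.5 ± 18.2 CPM, log2 difference -0.59, adjusted p = 0.00874), Tfdp1 (-0.60, adjusted p = 0.00889) and Myc (-1.81, adjusted p = 0.0106). None of the 3 was called in Pbrm1-fl tumors against controls. Of the proliferation list Mcm4 was lower (-0.84, adjusted p = 0.0225; range-matched -1.14, adjusted p = 0.125), and none of 23 p53 targets was called (smallest adjusted p 0.0580).

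Neighbors of the INK4 and Cdkn1c genes were read from the same tests. Mtap, beside Cdkn2a, was at 29.6 ± 4.13 CPM in Pbrm1-fl against 39.7 ± 7.22 in Arid1a-fl tumors (log2 difference -0.42, adjusted p = 0.0234; range-matched -0.69, adjusted p = 0.0587), and Dmrta1, its other listed neighbor, was not called in any comparison. Kcnq1ot1, the long noncoding RNA that silences Cdkn1c on the paternal allele, was lower in Pbrm1-fl tumors, at 547 ± 53.4 against 787 ± 72.0 CPM in Arid1a-fl (-0.53, adjusted p = 0.00961) and against 759 ± 201 CPM in Arid1b-fl tumors (-0.47, adjusted p = 0.0392). Range-matched, these Kcnq1ot1 differences were -0.59 and -0.43 and neither was called (adjusted p = 0.148 and 0.587). Cdkn1c itself stood at 36.7 ± 7.85 CPM in Pbrm1-fl, 47 ± 15 in Arid1a-fl and 81.2 ± 55.4 in Arid1b-fl tumors, and was called in neither. The other 5 listed neighbors of Cdkn1c (Kcnq1, Phlda2, Slc22a18, Nap1l4 and Cd81) were not called.

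In Arid1b-fl tumors 0 of 10 members passed against controls by edgeR, 0 at an unadjusted p under 0.05 and 0 by DESeq2, where 0.0548% of genes were called and 6.22% had an unadjusted p under 0.05. The members differed by -0.24 to 0.45. Cdk4, at 158 ± 55.8 CPM (93.3 to 232, median 155), had a log2 difference of 0.39 ± 0.20 (adjusted p = 0.801), and 4 of 8 tumors lay above the control median. Arid1a-fl against Arid1b-fl also gave 0 calls by either tool (0.0996% of genes by edgeR) and 1 member at an unadjusted p under 0.05, Cdkn2a at 33.2 ± 15.1 against 14.4 ± 10.5 CPM (1.2 ± 0.50, adjusted p = 0.332). Cdk4 differed there by 0.37 ± 0.22 (adjusted p = 0.486), so its rise was not shown to differ between the 2 floxed genes. No G1/S, proliferation or p53 gene was called by edgeR in either comparison, with smallest adjusted p of 0.697 against controls and 0.180 between the floxed groups.

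Pbrm1-fl against Arid1b-fl tumors gave 0 calls by edgeR among the 10 members, beside 4.37% of genes, and 5 members at an unadjusted p under 0.05, beside 17.9%. DESeq2 called Ccnd2. Ccnd2 was 4706 ± 3087 against 1757 ± 820 CPM (log2 difference 1.42 ± 0.47, adjusted p = 0.0787) and Cdk6 96.4 ± 21.5 against 50.1 ± 13.1 CPM (0.95 ± 0.32, adjusted p = 0.0811). Range-matched, Ccnd2 was 0.99 (adjusted p = 0.751) and Cdk6 0.12 (adjusted p = 0.974), and with only these 2 groups in the fit edgeR called Cdk6 (0.94, adjusted p = 0.0100). Ccnd2 and Cdk6 thus had higher means in Pbrm1-fl tumors than in each of the other hSS2 groups, without passing in the edgeR fit of all hSS2 groups, and range-matched the sign for Cdk6 turned against Arid1a-fl. Cdkn1c was -1.14 ± 0.42 (adjusted p = 0.116), Cdkn1b 0.39 ± 0.17 (adjusted p = 0.212) and Ccnd3 -0.32 ± 0.14 (adjusted p = 0.201). These comparisons share the Pbrm1-fl tumors.

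In hSS1 tumors 0 of the 10 members passed between Pbrm1-fl and control by edgeR. Only 0.00562% of genes, which is 1 gene, were called there, and DESeq2 also called 0 members. At an unadjusted p under 0.05 there were 2 members, Cdk4 and Ccnd3, beside 17.2% of genes. Cdk4 was at 192, 256, 146 and 213 CPM in the 4 Pbrm1-fl tumors and at 306, 263, 342, 258 and 323 CPM in the 5 controls. The log2 difference was -0.56 ± 0.17 (edgeR, adjusted p = 0.180). Mki67 was at 225, 450, 539 and 513 CPM against 814, 358, 593, 1082 and 964 CPM (-0.82 ± 0.36, adjusted p = 0.289). So Cdk4 and Mki67 both had lower means in the hSS1 Pbrm1-fl tumors. All of these were numbered 1000 to under 2000, as were control replicates 3 to 5.

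Ccnd3 (chr17:47505051-47599691, plus strand) was at 111, 101, 108 and 116 CPM in the hSS1 Pbrm1-fl tumors and at 71.3, 61.1, 43.8, 108 and 74.5 CPM in the controls. All 4 lay above the control median and control replicate 4 overlapped them. The difference was 0.61 ± 0.22 (adjusted p = 0.227). The 9 other members all had negative values, from -0.83 to -0.02, with a median over the 10 of -0.51 beside 0.01 over all genes. The p27 gene Cdkn1b, at 75, 92.7, 155 and 126 against 156, 141, 111, 196 and 188 CPM, differed by -0.50 ± 0.25 (adjusted p = 0.333). Ccnd2, the most variable cyclin, was at 1291, 1528, 3823 and 5221 CPM against 2638, 1656, 1582, 4450 and 5715 CPM, with no difference beyond that spread (-0.11 ± 0.54, adjusted p = 0.936). None of the listed G1/S, proliferation or p53 genes was called (smallest adjusted p 0.121), and the median of the proliferation list was -0.89.

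The test of whether the Pbrm1-fl effect differed between backgrounds called Ccnd3 alone of the 10 members, beside 2.86% of genes. Ccnd3 was higher in value in Pbrm1-fl tumors of hSS1 (0.61) and lower in those of hSS2 (-0.29), and the difference of these effects was 0.89 ± 0.24 on the log2 scale (adjusted p = 0.0332). Neither effect passed on its own. The call was lost without hSS1 control replicate 1, 2 or 3 or hSS1 Pbrm1-fl replicate 1, with values of 0.76 to 1.11 over 30 removals. It was 0.79 with Mki67 as a covariate, where the call was lost. With only the hSS2 controls range-matched and all hSS1 controls kept, it was 0.89 (adjusted p = 0.216). Ccnd3 overlaps Bysl on the other strand and has a processed pseudogene, so part of its count is uncertain. The Pbrm1 transcript itself fell less in value in hSS1 than in hSS2, without passing (difference 0.51 ± 0.19, edgeR adjusted p = 0.125). The paper proposes that some hSS1 tumor cells recombined only 1 of the floxed Pbrm1 alleles. Extent of Pbrm1 loss and fusion background therefore cannot be told apart here. Cdkn1b (-0.81 ± 0.28, adjusted p = 0.104) and Cdk6 (-1.28 ± 0.59, adjusted p = 0.226) had opposite signs in the backgrounds without passing. The other 7 ranged from -1.32 to 0.36, and no listed G1/S, proliferation or p53 gene was called (smallest adjusted p 0.0585).

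Among the 13 hSS2 control tumors alone, no member and no gene of 15264 (0%) was called across the ranges of mouse number by edgeR, where 1712 genes and 2 members had an unadjusted p under 0.05. The members were Ccnd1 and Cdkn2b, and DESeq2 called 0 members. Ccnd1 (chr7:144929931-144939925, minus strand) averaged 230 ± 70.8 CPM in the 5 controls under 1000, 316 ± 67.7 in the 4 at 1000 to under 2000 and 516 ± 206 in the 4 at 2000 and over (adjusted p = 0.394 or more for all members). Cdkn2b averaged 6.16 ± 3.71, 5.42 ± 0.717 and 13.3 ± 9.02 CPM, and Cdkn2a 8.24 ± 8.18, 8.22 ± 3.91 and 23.9 ± 13.3 CPM. Ccnd2 averaged 1324 ± 819, 2158 ± 1341 and 2910 ± 2431 CPM and Cdk6 43.8 ± 22.8, 47.7 ± 11.8 and 84.2 ± 38 CPM. With Cdkn1c and Cdk4, 7 of the 10 members had their highest mean in the range that holds every hSS2 Pbrm1-fl mouse. That range includes control replicate 1, which held 296 CPM of Cdkn1c and 6463 CPM of Ccnd2. The medians of Cdkn1c by range were 41.6, 36.4 and 35.6 CPM, so its highest mean there rests on that tumor. Ccnd1 did not pass in any comparison, with group means between 333 and 396 CPM in hSS2 and of 278 and 274 CPM in hSS1.

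Across tumors Cdk4 followed Mki67 more closely than any other member in hSS2. With group means subtracted, so that the groups do not make the relation, the Pearson r of log2 CPM was 0.72 (Spearman rho 0.71, permutation p = 1e-05 for each, the smallest that 100000 permutations within groups can give, n = 37). Of all 20082 other genes 2.16% had an r at or above it. Cdkn1b followed with r = 0.56 and rho = 0.59 (permutation p = 0.00033 and 0.00026), although p27 is an inhibitor of the cell cycle. Ccnd1 had r = 0.54 and rho = 0.54 (permutation p = 0.00187 and 0.00184) and Cdk6 r = 0.52 and rho = 0.43 (permutation p = 0.00238 and 0.0154).

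These were 4 members of 10 with an adjusted p under 0.05 over all genes (0.000371, 0.00572, 0.0191 and 0.0226 for the r of Cdk4, Cdkn1b, Ccnd1 and Cdk6), where 16.1% of genes passed. At an unadjusted p under 0.05 there were 7 members, where 32.2% of genes were. The further members of that count were Ccnd2 (r = 0.40), Cdkn2a (r = 0.39) and Ccnd3 (r = -0.38), with adjusted p of 0.0858, 0.117 and 0.143. Cdkn1a (r = -0.18), Cdkn1c (r = -0.16) and Cdkn2b (r = -0.05) had permutation p of 0.311 or more. The median r was 0.39 over the members and -0.04 over all genes.

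The relation of Cdk4 was positive within each range of mouse number, with r of 0.75 (n = 13, permutation p = 0.00453), 0.64 (n = 12, p = 0.0140) and 0.77 (n = 12, p = 0.00689). That of Cdkn1b was 0.31, 0.79 and 0.73 (permutation p = 0.344, 0.00348 and 0.00896), and that of Ccnd1 0.63, 0.63 and 0.40. These p are unadjusted, and adjusted over the 20 relations with Mki67 in both backgrounds no member passed in any range alone. Cdk6 gave 0.71, 0.52 and 0.04, so its relation was not seen in the range of 2000 and over. Without the 2 tumors farthest from the median of Mki67, r was 0.69 for Cdk4, 0.62 for Cdkn1b, 0.44 for Ccnd1 and 0.32 for Cdk6. The relation of Cdk6 rests on those tumors, and without control replicate 12 alone its r was 0.39, and the relation of Ccnd1 no longer passed without the 2 tumors. Mki67 fell with the muscle score (r = -0.44, permutation p = 0.00741). With that score also subtracted r was 0.65 for Cdk4, 0.53 for Cdkn1b, 0.41 for Ccnd1 and 0.46 for Cdk6. The unadjusted permutation p were 5e-05, 0.00086, 0.0265 and 0.0138. Adjusted over the 20 relations, only Cdk4 and Cdkn1b passed with the muscle score subtracted. By rho without that score, Cdk6 did not pass over the 20 relations (permutation p adjusted 0.0616).

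**Figure D4:**
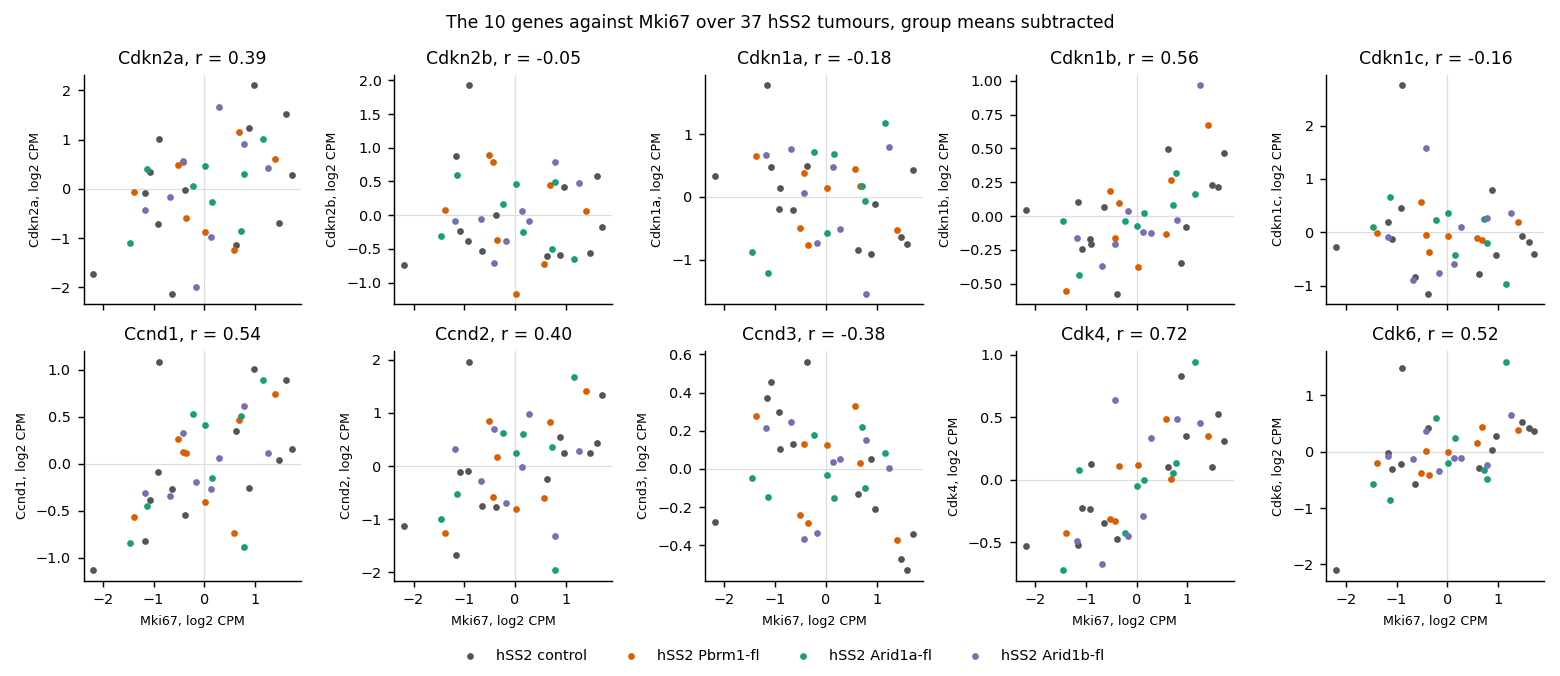
Log2 CPM of each of the 10 genes against that of Mki67 in 37 hSS2 tumors, both with the mean of the genotype group subtracted, with 1 point per tumor colored by group and r above each panel. Cdk4 rises with Mki67 (r = 0.72), Cdkn1b, Ccnd1 and Cdk6 follow (0.56, 0.54 and 0.52), and Cdkn2b shows no slope (-0.05).

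In the 9 hSS1 tumors Cdk4 had r = 0.005 and rho = -0.06 (exact permutation p = 0.992 and 0.935). Ccnd2 had r = 0.80 (exact permutation p = 0.0111) and rho = 0.66 (exact permutation p = 0.0531), and Cdkn1b r = 0.76 and rho = 0.74 (exact permutation p = 0.0243 and 0.0417). These 2 members, and 8.23% of genes, had an unadjusted p under 0.05. Adjusted over all genes no member and no gene (0%) passed by this test, the one run for correlations. The values are 0.403 for Ccnd2 and 0.522 for Cdkn1b. Without the 2 tumors farthest in Mki67, r of Ccnd2 was 0.70. Cdkn1b was thus the member with an r above 0.5 in both backgrounds besides Ccnd1 (0.59 in hSS1, exact permutation p = 0.114). Whether r differed between backgrounds was not tested.

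Some pairs of members also varied together. Of the 45 pairs over 37 hSS2 tumors, 13 had an r whose permutation p, adjusted over the 45, was under 0.05, and 12 of the 13 were positive. The share over pairs of other genes was not computed, so whether 13 of 45 is many for these tumors was not tested. The D-type cyclins Ccnd1 and Ccnd2 ran together most closely (r = 0.72, rho = 0.69, permutation p = 1e-05 and 2e-05, adjusted p = 0.00045 and 0.0009). Cdk6 ran with Ccnd2 (r = 0.63, rho = 0.68) and with Ccnd1 (r = 0.63, rho = 0.56). The INK4 neighbors Cdkn2a and Cdkn2b gave r = 0.53 and rho = 0.51 (adjusted p = 0.0105 and 0.0174).

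Cdkn2a, although it encodes inhibitors, ran with Ccnd1 (r = 0.57), Cdk4 (0.53), Cdk6 (0.49) and Ccnd2 (0.46). The third cyclin stood apart. Ccnd3 ran with the p21 gene Cdkn1a (r = 0.48, rho = 0.45, adjusted p = 0.0132 and 0.0235) and against Cdkn1b (r = -0.49, rho = -0.45, adjusted p = 0.0155 and 0.0372), and its r with Ccnd1 and Ccnd2 was -0.30 and -0.29. With the muscle score also subtracted 4 pairs passed (Ccnd1 with Ccnd2, Ccnd2 with Cdk6, Ccnd1 with Cdk6, and Cdkn2a with Cdkn2b), and with Mki67 subtracted 6. The r of Ccnd1 with Ccnd2 was 0.63 and 0.66 under these, and that of Cdkn2a with Cdkn2b 0.58 and 0.60.

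**Figure D5:**
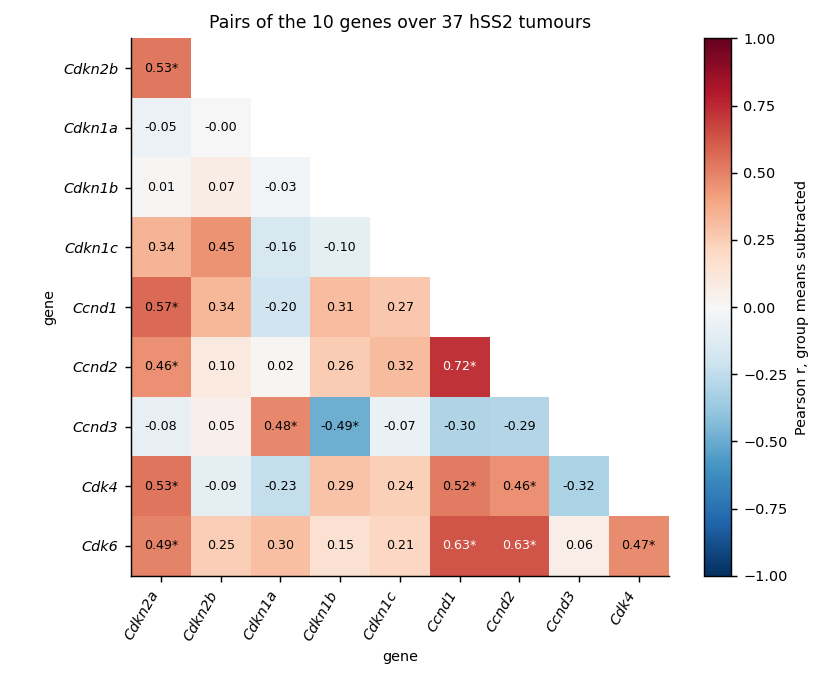
Pearson r of log2 CPM, group means subtracted, for every pair of the 10 genes over 37 hSS2 tumors (red positive, blue negative), with an asterisk where the permutation p adjusted over 45 pairs was under 0.05. The block of Ccnd1, Ccnd2, Cdk4, Cdk6 and Cdkn2a is red throughout, and Ccnd3 with Cdkn1b (-0.49) is the 1 negative pair with an asterisk.

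The genes whose level most resembled each member over the 37 hSS2 tumors, by Spearman rho among 14151 protein-coding genes and with groups left in, are given as a description. Cdk4 was most like Smarcc1, a core BAF subunit (rho = 0.93), and Mcm7 of the replicative helicase (0.91). Ccnd1 was most like the ETS factor Etv4 (0.88) and Ier5 (0.86), which are known as genes induced by growth factor signals. Ccnd2 was most like Prdm12 (0.89) and the planar polarity gene Celsr1 (0.86). Celsr1 also led the list of Cdk6 (0.88), before Wnt9b (0.81).

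Among the inhibitors, Cdkn2a was most like Sesn2 (0.81) and Vav2 (0.79), and Cdkn1a like the galectin Lgals3 (0.84) and the kinase Pim1 (0.83). Cdkn1b was most like Zfp536 (0.76) and Fam234b (0.73), Cdkn1c like Itm2c (0.72) and Btbd11 (0.66), and Cdkn2b like Wnt5b (0.69) and Prex2 (0.63). Ccnd3 was most like Exoc3l4 (0.77) and Camkk1 (0.70). The points share their libraries, their depth and the muscle content described above.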

How the data were processed

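RNA from fresh frozen tumor tissue was sequenced by the authors as ribosomal RNA-depleted, stranded, paired-end libraries. They deposited raw read counts per gene, made per the labels and methods with STAR 2.7.11, mm10 and featureCounts 1.6.3, as 1 table for each background. The annotation release, strand setting and multi-mapping rule are not given in the sources used here. Groups came from sample titles. The 10 genes, the gene lists and the comparisons were chosen with earlier results of these data known.

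Tests used edgeR 4.0.16 in R 4.3.3 (filterByExpr, TMM scaling, robust quasi-likelihood F-tests, two-sided, Benjamini-Hochberg over all genes tested, threshold 0.05). The 37 hSS2 libraries shared a fit, the 9 hSS1 libraries another, and the interaction used all 46. Levels are CPM on TMM-scaled library sizes, and per-kilobase values divide them by merged exon length. SE are those of the log2 difference. Correlations used log2 CPM with a prior count of 2 and permutations within groups, two-sided (100000 in hSS2, all 2880 in hSS1). Lists were G1/S pathway (27 genes), p53 targets (24), proliferation (32) and the neighbors of Cdkn2a (2) and Cdkn1c (6). Marker lists of skeletal muscle, macrophage, endothelial, T cell, adipocyte, erythroid and keratinocyte origin were scored as mean log2 CPM. Named genes were the 10 members, Mki67, the targeted genes, up to 3 called list genes per direction, the neighbors, and the 2 genes most like each member. Alternatives were DESeq2 1.42.0, RLE scaling, no filter, covariates, matched mouse number ranges, fits of 2 groups and leaving out each tumor. Scripts were tested on simulated data. Replicates are separate tumors by label.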

Additional observations from a re-analysis of the deposited data

Results flagged for a closer look

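Of 55 groups of 4 to 10 tumors examined, 8 held a tumor set apart by Dixon's criterion. By it, the gap to the nearest other tumor is wide for the range of the group. Its rate by chance of about 1 group of 20 is for independent, normally distributed values. The values here were CPM without logs, of members that vary together, so the 8 cannot be set against that rate. All 8 were the highest of their group. Arid1a-fl replicate 1 was set apart in 3 members, with 4810 CPM of Ccnd2 (the other 7 between 385 and 2313), 373 CPM of Cdk4 (117 to 213) and 156 CPM of Cdk6 (28.3 to 77.6). It also had the highest Mki67 (799 CPM) and the lowest muscle score (-1.68) of the hSS2 tumors. Without it the Cdk4 difference between Arid1a-fl and control tumors was 0.58 on the log2 scale and was no longer called.

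Cdk6 was set apart in both hSS1 groups, at 169 CPM in control replicate 1 (the others 17.8 to 58.8) and 104 CPM in Pbrm1-fl replicate 3 (25.7 to 35.5). Cdkn2b was 5.95 CPM in hSS1 control replicate 5 (2.31 to 3.36). Among Arid1b-fl tumors, Cdkn1b was 150 CPM in replicate 5 (59.4 to 78.6) and Cdkn1c was 209 CPM in replicate 2 (37.4 to 90.4). Without Arid1b-fl replicate 5, Cdkn1b was called higher in Pbrm1-fl than in Arid1b-fl tumors (0.59, edgeR adjusted p = 0.0247).

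The effect of Pbrm1-fl on Ccnd3 differed between the backgrounds by the interaction test, at 0.89 on the log2 scale (adjusted p = 0.0332). It was called in 26 of 30 removals of a tumor. The call was lost with Mki67 as a covariate and with the hSS2 controls range-matched (edgeR adjusted p = 0.216).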

How the results depend on the processing

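Counts of members past the threshold moved as follows. The shares of all genes called under these other settings are not given here, so the counts cannot be set against them. With controls of the same mouse number range 1 member was called in hSS2 Pbrm1-fl versus control and 2 in Pbrm1-fl versus Arid1a-fl. The difference of Pbrm1-fl effects gave 0, with only the hSS2 controls matched. In Arid1a-fl versus control the count stayed at 1, with Cdkn2a in place of Cdk4. With DESeq2 the counts were 2 for Arid1a-fl versus control, 3 for Pbrm1-fl versus Arid1a-fl (Cdk4, Cdkn2a and Ccnd2) and 1 for Pbrm1-fl versus Arid1b-fl (Ccnd2). With Mki67 as a covariate they were 0 for Arid1a-fl versus control, 0 for the difference of effects and 3 for Pbrm1-fl versus Arid1a-fl, and with the muscle score 3 for the last. With only the groups compared in the fit they were 0 for Arid1a-fl versus control, 2 for Pbrm1-fl versus Arid1a-fl and 1 for Pbrm1-fl versus Arid1b-fl. With matched ranges 15 of 70 member differences turned in sign. They were Cdk6 in Pbrm1-fl versus Arid1a-fl (-0.25) and 14 with an unadjusted p of 0.05 or more in the fit of all groups, such as Ccnd1 in Pbrm1-fl versus control (0.19 to -0.40) and Ccnd2 in Arid1a-fl versus control (-0.11 to 0.53).

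Leaving out each tumor gave 0 to 2 members in hSS2 Pbrm1-fl versus control, 0 to 2 in Arid1a-fl versus control, 0 to 1 in the difference of effects, 0 to 2 in Pbrm1-fl versus Arid1a-fl and 0 to 1 in Pbrm1-fl versus Arid1b-fl. Counts of correlations with Mki67 used p adjusted over the 20 relations, by which 4 members passed in hSS2 and 1 (Ccnd2) in hSS1. In hSS2 the count was 2 (Cdk4 and Cdkn1b) with the muscle score also subtracted and 0 in each range alone. In hSS1 it was 0 with Spearman rho, with the proliferation list, with the muscle score and without the 2 tumors farthest in Mki67, and 0 to 2 without each tumor. Of the pairs, 4 passed with the muscle score and 6 with Mki67. The cause of these changes was not tested.

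No paired analysis was run. The paper states that controls were littermates, but the labels name no litter, so tumors could not be paired by litter. Depth was not limiting for the members, whose lowest count was 20 reads. Whether reads of overlapping genes or of the Ccnd3 pseudogene entered the counts was not tested.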

Other observations

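The other cell type lists gave these values for hSS2 tumors, as the range of summed CPM. Macrophage markers (10 of 10 passed the filter) ran from 44.2 to 991, endothelial markers (8 of 8) from 117 to 1033, T cell markers (5 of 6) from 0.753 to 47.8 and adipocyte markers (5 of 6) from 0.100 to 143. Erythroid markers (5 of 5) ran from 14.7 to 47393, the highest in Arid1b-fl replicate 5, the tumor with the highest Cdkn1b of its group. Keratinocyte markers (2 of 6) stayed between 0.420 and 2.77.

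Arid1b-fl replicate 5 also had the highest Mki67 of its group, at 579 CPM. Control replicate 1 held 26.7 CPM of Cdkn2b and 296 CPM of Cdkn1c, the highest of all 37 hSS2 tumors for both inhibitors, together with 6463 CPM of Ccnd2 and 118 CPM of Mki67.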
